A study of Mus musculus with 10 samples.

Results

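Intestinal identity transcription factors were followed as 9 genes, Cdx1, Cdx2, Hnf4a, Hnf4g, Gata4, Gata5, Gata6, Isx and Maf. They were taken by symbol from the table that pairs probe sets with genes, and all 9 were among the 19505 genes measured, each with 1 probe set. The samples were mouse intestinal organoids, which are epithelial structures grown in culture, and each gave 1 microarray. 5 organoid samples were labelled KO for IκBα and 5 were labelled WT, and the sources used here give no treatment, age, strain or driver of the deletion beyond the mark P6, which was not interpreted. The region of the intestine the organoids came from is not stated either. IκBα, the product of Nfkbia, holds NF-kB transcription factors inactive in the cytoplasm. Whether the samples of a group came from different animals or cultures is not stated in the labels. The p-values therefore reflect the variation among these 10 samples alone, and this may be technical.

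CDX1 and CDX2 are homeodomain proteins that set and keep intestinal against gastric character along the gut. HNF4A and HNF4G are nuclear receptors that work as partners in the enterocyte and drive genes of the brush border and of lipid handling. The zinc finger proteins GATA4, GATA5 and GATA6 bind sites built around the letters GATA and, in the mouse small intestine, GATA4 keeps the jejunum distinct from the ileum. ISX is a homeodomain repressor that links vitamin A status to carotenoid uptake, and MAF is a basic leucine zipper factor with a role in the mature enterocytes of the mouse villus.

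8 of the 9 factors fell in KO organoids and none rose, with Hnf4g, Isx and Gata4 showing the lowest changes and Gata6 the smallest that passed the test. Maf did not pass. Over all 19572 probe sets with 1 gene symbol, 11.7% were called lower and 26.7% in either direction at the same threshold, an adjusted p under 0.05 from limma's moderated test with Benjamini-Hochberg adjustment. In 6 of the 9, every KO array lay below every WT array, against 9.07% of all probe sets. The median change of the 9 was -2.66, beside -0.01 over all genes. Levels are on the log2 scale throughout, and a change is the KO mean minus the WT mean, so that -1 is a halving. The RNA came from whole organoids, in which fewer cells of a type and less RNA per cell cannot be told apart.

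Some facts of the arrays stand beside every change below. Nfkbia, the gene named in the labels, stood at 5.06 ± 0.31 in KO and 9.19 ± 0.38 in WT (SD, n = 5 each), a change of -4.13 in the direction of the labels. The sources used here do not tell where its probes lie relative to the deleted part. The Y-linked genes Eif2s3y, Uty and Kdm5d changed by -5.20, -4.47 and -2.42, which are lower bounds in size, with all 5 KO arrays at or below their negative control medians and no overlap of groups, so lower Y-linked signal and the KO label cannot be told apart here. Pearson's r between arrays was 0.965 to 0.987 within KO, 0.963 to 0.990 within WT and 0.885 to 0.929 between the groups. The array medians ran from 6.03 to 6.23, and those of the negative control probe sets from 4.30 to 5.10. A gene at or below the negative control median of its own array is not above background there, and a size measured against such a group is a lower bound. None of the 9 factors was at or below it in any array. The 8 control probe sets for hybridization and labelling had medians of 8.94 to 9.26 in KO arrays and 9.53 to 10.04 in WT arrays. Centring each array on these controls moved the median change of all genes to 0.57 and the split of calls to 14472 probe sets higher and 849 lower, beside 2928 higher and 2296 lower as deposited. Under that scaling Cdx1, Cdx2, Hnf4a, Hnf4g, Gata4, Gata5 and Isx still fell and passed, while Gata6 stood at 0.041 and Maf at 0.22. The part of these controls in the results was not otherwise tested.

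**Figure D1:**
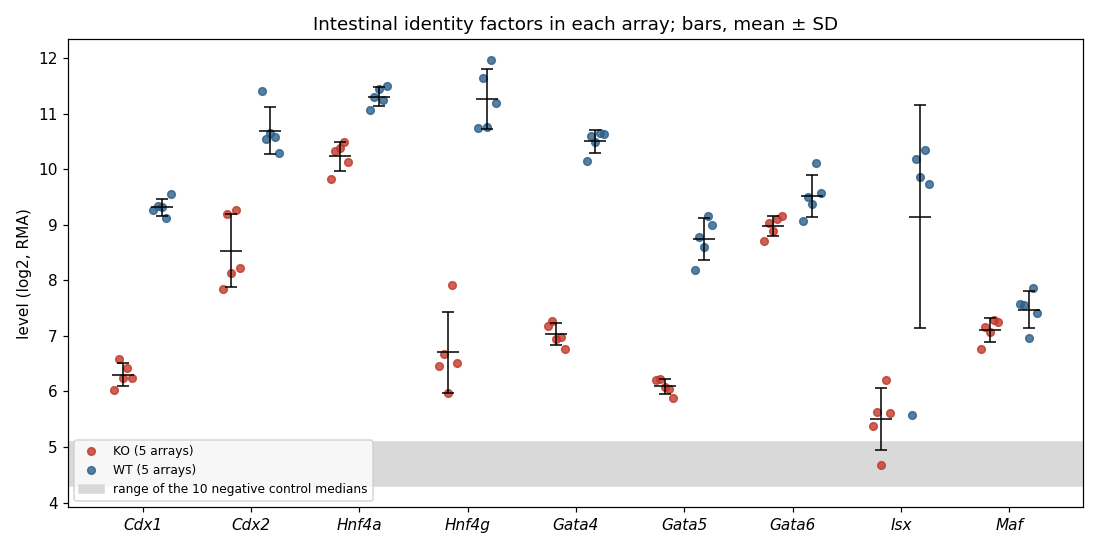
Level of each intestinal identity factor (log2, RMA) in 5 KO arrays (red, left of each pair) and 5 WT arrays (blue, right), with bars for mean ± SD and a grey band from 4.30 to 5.10 for the negative control medians of the 10 arrays. The 2 groups stand apart for Cdx1, Cdx2, Hnf4a, Hnf4g, Gata4 and Gata5, overlap for Gata6 and Maf, and overlap for Isx through WT replicate 1 at 5.58.

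The promoters are shown because 8 of the 9 factors fell in organoids labelled KO for a regulator of NF-kB. Each window holds 250 bases before to 50 bases after an annotated start, taken from RefSeq on GRCm38.p6 and printed 5′ to 3′ on the strand of the gene. 4 of the 9 factors (Cdx2, Gata5, Hnf4a and Isx) were matched, with 5 windows, since Hnf4a has 2. Each was searched on both strands for 4 motifs. For CDX factors the letters were TTTATG, a core shared by many of their known sites. For GATA4, GATA5 and GATA6 they were AGATAA. The HNF4 receptors were given CAAAGTCCA as their letters. The NF-kB motif was read as GGGA, then any 4 bases, and then a pair of cytosines. Matches of different motifs were allowed to overlap. Capitals mark the matches. In the window of Cdx2 (chr5:147307200-147307499, minus strand) an NF-kB match on the opposite strand began 20 bases after the start, and in that of Gata5 (chr2:180334630-180334929, minus strand) another began 94 bases before it. The first Hnf4a window (chr2:163506607-163506906, plus strand) held a GATA match 52 bases before the start, and its second window and that of Isx held none of the 4.
Cdx2: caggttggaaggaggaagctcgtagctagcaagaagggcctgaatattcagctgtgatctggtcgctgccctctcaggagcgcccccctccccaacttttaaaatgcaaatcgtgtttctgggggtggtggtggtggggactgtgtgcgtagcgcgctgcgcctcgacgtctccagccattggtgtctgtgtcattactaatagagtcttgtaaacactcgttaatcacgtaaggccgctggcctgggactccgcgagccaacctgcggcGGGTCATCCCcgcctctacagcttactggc
Gata5: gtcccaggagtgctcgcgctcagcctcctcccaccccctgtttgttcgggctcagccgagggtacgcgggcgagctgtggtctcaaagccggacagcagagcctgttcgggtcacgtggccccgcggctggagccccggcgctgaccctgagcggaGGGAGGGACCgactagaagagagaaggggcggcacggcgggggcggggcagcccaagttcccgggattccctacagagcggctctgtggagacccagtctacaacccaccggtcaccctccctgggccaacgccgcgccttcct
Hnf4a: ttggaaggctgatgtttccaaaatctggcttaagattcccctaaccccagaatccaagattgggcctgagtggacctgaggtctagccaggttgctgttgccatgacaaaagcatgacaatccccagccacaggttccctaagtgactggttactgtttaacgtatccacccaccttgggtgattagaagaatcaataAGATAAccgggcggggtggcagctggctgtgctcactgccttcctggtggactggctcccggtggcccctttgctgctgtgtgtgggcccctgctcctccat

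Thus 2 of the 5 windows of the factors held the NF-kB letters, 1 the GATA letters, and 0 the CDX or HNF4 letters. Among all 32851 promoter windows the shares were 20.7% for NF-kB, 11.2% for GATA, 11.9% for CDX and 0.475% for HNF4. With 5 windows these counts describe single promoters only, and a match is a run of letters, not a site shown to be bound. For 2 further genes named in the results below, Sis and Slc10a2, the CDX letters lay close to the start. These are picked examples. Across the lists read below, the letters stood in 5 of 10 windows of reported CDX2 targets and 4 of 8 of distal small intestine genes. Sis, the brush border sucrase and a textbook CDX2 target, has its window at chr3:72967814-72968113 (minus strand), with the match 43 bases before the start. Slc10a2, the bile acid importer of the ileum, has its window at chr8:5105238-5105537 (minus strand), with the match 122 bases before the start.
Sis: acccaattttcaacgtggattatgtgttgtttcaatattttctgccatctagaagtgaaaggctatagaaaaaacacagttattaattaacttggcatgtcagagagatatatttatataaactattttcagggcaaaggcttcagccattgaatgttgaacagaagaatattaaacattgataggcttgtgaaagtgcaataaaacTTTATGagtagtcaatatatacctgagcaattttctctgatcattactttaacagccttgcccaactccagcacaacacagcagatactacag
Slc10a2: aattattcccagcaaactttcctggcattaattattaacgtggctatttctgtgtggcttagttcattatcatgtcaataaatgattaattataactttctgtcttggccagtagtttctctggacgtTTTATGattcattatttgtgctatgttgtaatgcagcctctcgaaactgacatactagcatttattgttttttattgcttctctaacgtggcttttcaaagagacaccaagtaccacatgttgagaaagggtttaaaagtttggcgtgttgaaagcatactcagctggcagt

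The CDX factors both fell. Cdx1 read 6.03, 6.58, 6.24, 6.43 and 6.24 in KO replicates 1 to 5, against 9.27, 9.33, 9.31, 9.11 and 9.54 in WT replicates 1 to 5. All KO arrays lay more than 2 units below all WT arrays, and both groups were tight. The change was -3.01 with a standard error (SE) of 0.12, or 8.06-fold lower with a 95% confidence interval of 6.68 to 9.74 (limma, adjusted p = 7.38e-09). Cdx2, the member of the pair needed for intestinal character in mouse endoderm, read 7.84, 9.20, 8.12, 9.27 and 8.23 in KO, against 11.40, 10.55, 10.66, 10.58 and 10.28 in WT. KO replicates 2 and 4 lay about 1 unit above the other KO arrays but still below every WT array, and WT replicate 1 was the highest of all. Cdx2 changed by -2.16 (SE 0.30), or 4.47-fold lower with an interval of 2.83 to 7.08 (limma, adjusted p = 0.000205). Its SD was 0.66 in KO and 0.42 in WT, wider than the 0.21 and 0.15 of Cdx1.

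Both HNF4 receptors fell, by very different measured amounts. Hnf4a read 9.82, 10.33, 10.38, 10.50 and 10.12 in KO, against 11.07, 11.29, 11.43, 11.25 and 11.49 in WT. The groups did not overlap, and KO replicate 1 was the lowest array. Its change of -1.08 (SE 0.14) was 2.11-fold with an interval of 1.70 to 2.61 (limma, adjusted p = 0.000118). Hnf4g, the relative of Hnf4a with expression largely restricted to the gut and a few other organs, read 6.46, 6.68, 5.97, 7.92 and 6.50 in KO, against 10.73, 11.64, 10.76, 11.96 and 11.20 in WT. KO replicate 4 stood above the other KO arrays by more than 1 unit and WT replicate 4 was the highest WT array, yet the groups stayed far apart. At -4.55 (SE 0.35), Hnf4g had the lowest change of the 9 factors, 23.4-fold lower with an interval of 13.8 to 39.8 (limma, adjusted p = 1.53e-06), and only 0.502% of all genes had a lower change.

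The measured changes of the 3 GATA genes were graded. Gata4 read 7.18, 7.27, 6.94, 6.99 and 6.77 in KO, against 10.14, 10.59, 10.50, 10.65 and 10.63 in WT. The gap between the groups was wider than the range within them. Gata4 changed by -3.47 (SE 0.13), 11.1-fold lower with an interval of 9.07 to 13.6 (limma, adjusted p = 4.36e-09). Gata5, whose expression in mouse gut is strongest in differentiated villus cells, read 6.20, 6.23, 6.09, 6.04 and 5.89 in KO, against 8.19, 8.79, 8.60, 9.15 and 8.99 in WT. Here too the groups stood apart, with the wider spread in WT. The change of Gata5 was -2.66 (SE 0.17), or 6.30-fold lower with an interval of 4.89 to 8.13 (limma, adjusted p = 2.82e-07).

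Gata6, which is expressed in the crypt and along the villus, had the change nearest to 0 of the 3 GATA genes. It read 8.72, 9.02, 8.88, 9.10 and 9.16 in KO, against 9.06, 9.50, 9.37, 10.10 and 9.57 in WT. WT replicate 1 fell among the KO arrays, so the groups overlapped. Gata6 changed by -0.54 (SE 0.17), 1.46-fold lower with an interval of 1.12 to 1.90 (limma, adjusted p = 0.0382). This call was lost when any 1 of KO replicates 1, 2, 3 or 4 or WT replicates 2, 4 or 5 was left out, with adjusted p from 0.0553 to 0.0879, and over all leave-1-out fits its change ran from -0.66 to -0.40.

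Isx differed from the others by a single WT array. It read 5.38, 5.64, 4.67, 6.21 and 5.62 in KO, against 5.58, 10.18, 9.86, 10.35 and 9.72 in WT. WT replicate 1 lay within the KO range, and the other 4 WT arrays lay well above every KO array. The level of KO replicate 3 was just above the negative control median of that array, 4.64. Isx changed by -3.64 (SE 0.78), or 12.4-fold with an interval of 3.79 to 40.9 (limma, adjusted p = 0.00444). Without WT replicate 1 the change was -4.53 (limma, adjusted p = 6.09e-07).

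Known targets of ISX were read beside it. Bco1, which cleaves β-carotene, and Scarb1, which takes up carotenoids and lipids, are both repressed by ISX in the mouse intestine. Bco1 stood at 5.47 ± 0.14 in KO and 6.85 ± 0.55 in WT (SD, n = 5 each), and it fell by 1.38 (limma, adjusted p = 0.000655). Scarb1 stood at 8.65 ± 0.30 in KO and 8.60 ± 0.40 in WT (SD, n = 5 each), with a difference of 0.05 (limma, adjusted p = 0.902) and an interval of -0.40 to 0.49.

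Maf read 6.77, 7.16, 7.07, 7.28 and 7.26 in KO, against 7.57, 7.55, 6.96, 7.86 and 7.42 in WT. Most KO arrays lay below most WT arrays, but WT replicate 3 was lower than 4 of the 5 KO arrays. The difference of -0.36 (SE 0.16, interval -0.73 to -0.00) did not pass (limma, adjusted p = 0.132). Without WT replicate 3, the lowest WT array, it was -0.49 and passed (limma, adjusted p = 0.0243). In the other 9 fits with 1 array left out it did not pass. There the change came as near to 0 as -0.27, and the adjusted p reached 0.27 (limma).

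WT replicate 1 was the lowest WT array for 6 of the 9 factors, or 66.7%, and for 23.2% of all genes. For Cdx2 it was the highest, and for Maf it lay above the WT median. Averaged over the 9 factors, the level per array ran from 7.15 to 7.75 in KO and from 9.22 to 10.11 in WT.

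Whether relatives changed by different amounts was tested on the difference between 2 factors within each array. Levels of 2 probe sets cannot be set against each other. For 5 pairs, KO and WT arrays were set against each other in an exact permutation test, two-sided, with p-values adjusted over the 5. The measured changes differed in all 5 pairs, although for the CDX pair this rested on single arrays. The test compares arrays, and whether 2 probe sets respond alike to a change in RNA was not tested. Hnf4a minus Hnf4g was 3.52 ± 0.66 in KO and 0.05 ± 0.56 in WT (SD, n = 5 each), so the change of Hnf4g was lower by 3.47 (exact permutation test, adjusted p = 0.00992). Within the GATA family, the change of Gata4 was lower than that of Gata6 by 2.93 and that of Gata5 was lower than that of Gata6 by 2.11. Gata4 and Gata5 differed by 0.82, with within-array differences of 0.94 ± 0.08 in KO and 1.76 ± 0.19 in WT (SD, n = 5 each). Each of these GATA comparisons had an adjusted p of 0.00992 in the exact permutation test, from a raw p of 0.00794 that is the smallest 5 arrays against 5 can give.

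Cdx1 minus Cdx2 was -2.23 ± 0.47 in KO and -1.38 ± 0.50 in WT (SD, n = 5 each). The 2 groups overlapped here, since WT replicate 1 stood at -2.14 and KO replicate 1 at -1.81. The change of Cdx1 was lower by 0.85 (SE 0.31; exact permutation test, adjusted p = 0.0317). This call was lost without KO replicate 2 or 4, or without WT replicate 2, 3, 4 or 5, where the adjusted p ran from 0.0556 to 0.0714.

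**Figure D2:**
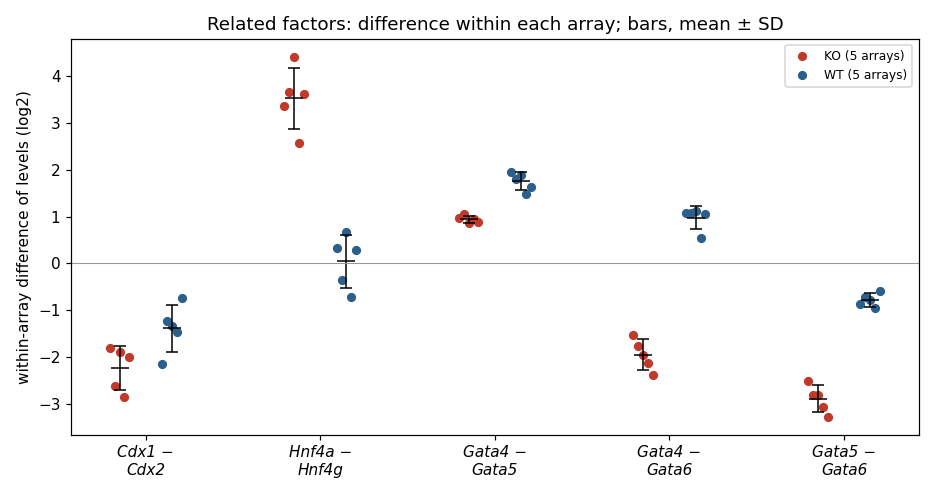
Difference between the log2 levels of 2 related factors within each array, for 5 pairs, in 5 KO arrays (red, left) and 5 WT arrays (blue, right), with bars for mean ± SD. Only the shift between groups was tested. It is widest for Hnf4a minus Hnf4g, at 3.52 in KO and 0.05 in WT. The groups overlap for Cdx1 minus Cdx2.

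Other transcription factors of the intestinal epithelium moved in both directions. Of 20 listed, 17 were measured, and 8 fell (47.1%), 3 rose (17.6%) and 6 did not pass, with a median change of -0.33. Over all genes, 11.8% fell and 15% rose. Ppara, a sensor of fatty acids, stood at 5.30 ± 0.22 in KO and 8.22 ± 0.53 in WT (SD, n = 5 each) and changed by -2.93 (limma, adjusted p = 1.69e-06). The vitamin D receptor Vdr changed by -1.56 and the bile acid receptor Nr1h4 by -1.69 (limma, adjusted p = 2.25e-05 and 0.000165). Creb3l3, which drives genes of lipoprotein metabolism and was named after its values were seen, changed by -3.33.

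The 3 that rose were Onecut2, Foxa2 and Ehf. Onecut2, a cut-homeodomain factor, stood at 11.38 ± 0.35 in KO and 9.92 ± 0.27 in WT (SD, n = 5 each), a change of 1.46 (limma, adjusted p = 8.30e-05). The forkhead factor Foxa2, which opens chromatin in gut endoderm, changed by 1.32, and the epithelial ETS factor Ehf by 1.25 (limma, adjusted p = 0.00116 and 0.00106). Klf5, a factor of proliferating crypt cells, stood at 10.98 ± 0.23 in KO and 11.07 ± 0.10 in WT (SD, n = 5 each) and did not pass.

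Of 12 listed relatives and cofactors of the 9 factors, 10 were measured, and 1 fell, 2 rose and 7 did not pass, with a median change of 0.10. These shares of 10% lower and 20% higher lie near the 11.7% and 15% of all probe sets. The one that fell was Zfpm1, the cofactor FOG1 that binds GATA proteins, at 7.43 ± 0.47 in KO and 10.01 ± 0.13 in WT (SD, n = 5 each), a change of -2.59 (limma, adjusted p = 1.54e-06). Its relative Zfpm2, known as FOG2, rose by 1.02 (limma, adjusted p = 0.00801). Maff, a small MAF protein without an activation domain of its own, rose by 1.59, with 7.43 ± 0.41 in KO and 5.84 ± 0.21 in WT (SD, n = 5 each; limma, adjusted p = 6.35e-05). Cdx4, Gata1, Gata2, Mafa, Mafg, Mafk and Nrl did not pass, with changes from -0.36 to 0.14.

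**Figure D3:**
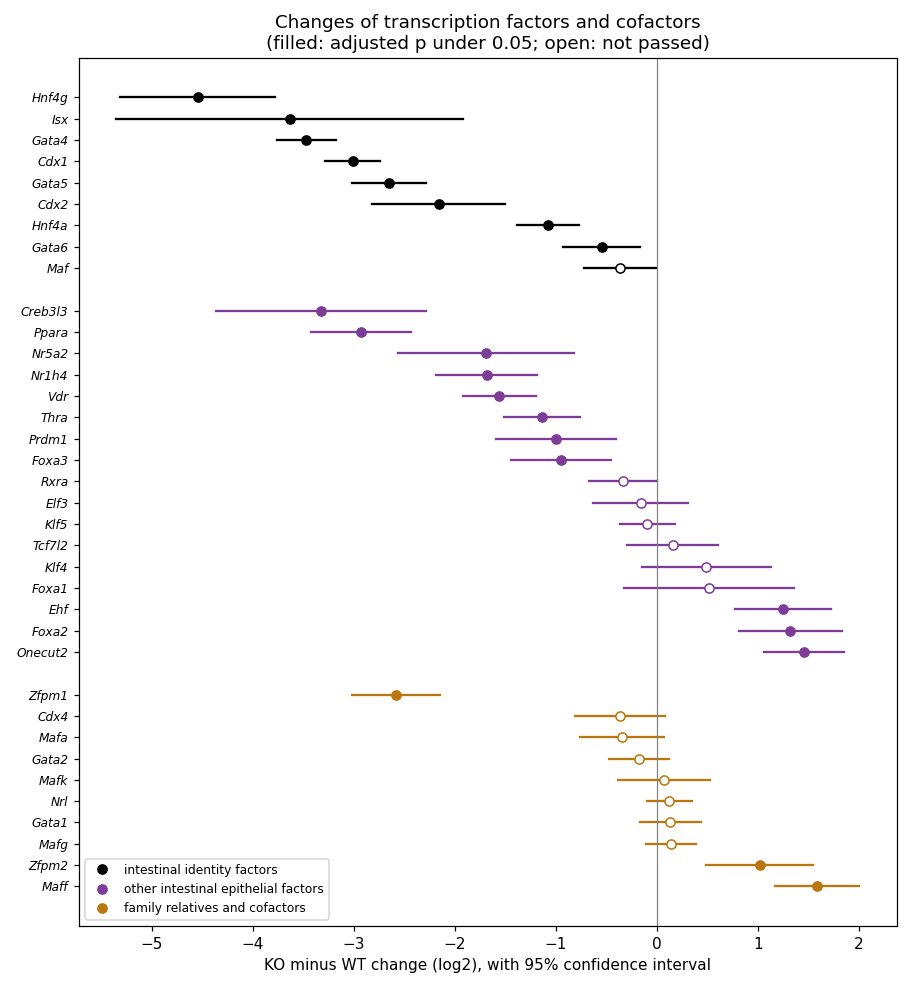
KO minus WT change (log2) with its 95% confidence interval for the 9 intestinal identity factors (black), 17 other intestinal epithelial factors (purple) and 10 family relatives and cofactors (orange); filled points passed an adjusted p under 0.05 in limma. The identity factors run from -4.55 for Hnf4g to -0.36 for Maf, with all points below 0 as deposited (Gata6 at 0.041 and Maf at 0.22 when arrays are centred on hybridization controls), whereas the other lists lie on both sides.

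Genes reported as targets of CDX2 were mostly lower. All 14 listed were measured, and 12 fell (85.7%), 1 rose (7.14%) and 1 did not pass, with a median change of -2.87. Over all genes, 11.8% fell and 15% rose. Sis stood at 4.77 ± 0.12 in KO and 11.99 ± 0.64 in WT (SD, n = 5 each), and its change of -7.22 was the lowest of the list (limma, adjusted p = 2.59e-09). 3 of the 5 KO arrays held Sis at or below the negative control median, so this size is a lower bound there. Alpi, the brush border alkaline phosphatase, changed by -6.68, Gucy2c, the receptor for guanylin, by -5.70, and the copper ferroxidase Heph by -2.92. The exceptions were named after their values were seen. Trpv6, an apical calcium channel, rose by 0.73 (limma, adjusted p = 0.00873), and the claudin Cldn2 stood at 9.93 ± 0.19 in KO and 9.92 ± 0.27 in WT (SD, n = 5 each).

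All 15 measured of the 16 genes reported as HNF4 targets fell (11.8% of all genes did), with a median change of -3.45. They hold apolipoprotein, brush border and metabolic genes. Apoa4, an apolipoprotein of chylomicrons, stood at 6.44 ± 0.17 in KO and 12.57 ± 0.89 in WT (SD, n = 5 each), a change of -6.13 (limma, adjusted p = 1.16e-07). Mttp, which loads lipid onto apolipoprotein B, changed by -5.76, the glucose transporter Slc2a2 by -5.42 and Apob by -5.31. The CDX2 and HNF4 lists share Cdhr5 only, and neither list separates targets of these factors from genes that mark mature enterocytes in general.

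**Figure D4:**
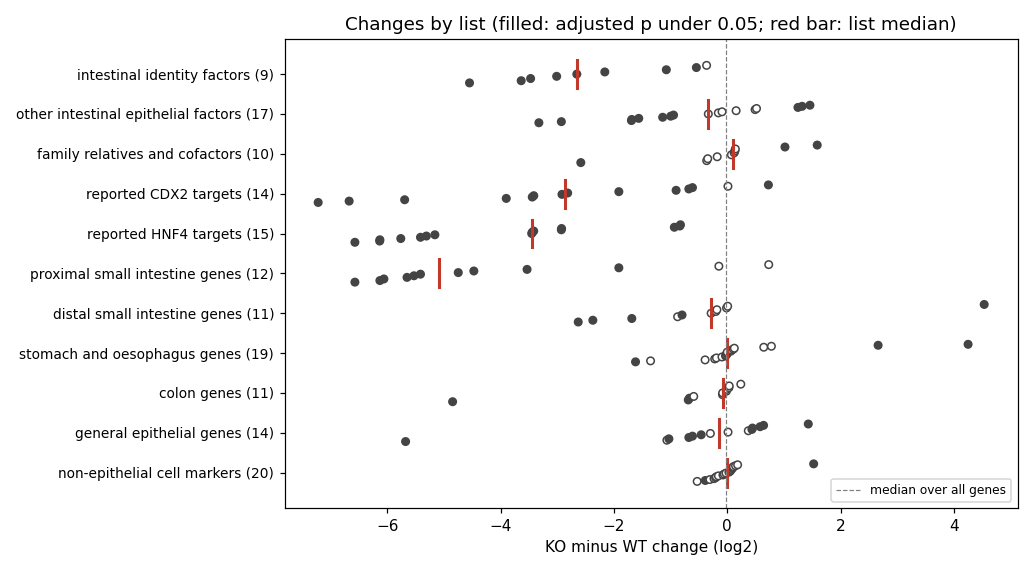
KO minus WT change (log2) of each measured gene, by list, with the number measured in brackets; filled points passed an adjusted p under 0.05 in limma, red bars are list medians and the dashed line is the median over all genes, -0.01. The identity factors, the reported CDX2 and HNF4 targets and the proximal small intestine genes have medians of -2.66, -2.87, -3.45 and -5.08, and the stomach, colon and non-epithelial lists have medians between -0.08 and 0.00. Some genes appear in more than 1 list, among them 3 proximal genes that are also HNF4 targets and 1 that is also a CDX2 target.

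Genes of the regions of the gut were read in the same way, with the region of origin of the organoids unknown. Of 12 genes of the proximal small intestine, 10 fell (83.3%, against 11.8% of all genes) and 2 did not pass, with a median of -5.08. This list is not separate from those above, since it shares Fabp1, Slc2a2 and Apoa4 with the HNF4 targets and Lct with the CDX2 targets. Npc1l1, the cholesterol importer, changed by -5.65, Adh6a by -6.06 and the sterol exporter subunit Abcg8 by -5.53. These sizes are lower bounds in part, since KO levels were at or below the negative control median in 5 of 5 arrays for Abcg8, 3 for Adh6a and 2 for Npc1l1. The 2 that did not pass were the iron genes Cybrd1 and Slc40a1, named after their values were seen. Cybrd1, the duodenal ferric reductase, read 7.63, 7.996, 6.39, 7.72 and 6.62 in KO, against 9.76, 5.51, 5.74, 6.06 and 5.64 in WT. WT replicate 1, the array in which Isx was low, was here the highest of all 10, and the other 4 WT arrays lay below every KO array. The difference was 0.73 over all arrays (limma, adjusted p = 0.526) and 1.54 without WT replicate 1 (limma, adjusted p = 0.00508).

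Of 11 genes of the distal small intestine, 4 fell (36.4%), 1 rose (9.09%) and 6 did not pass. Over all genes, 11.8% fell and 15% rose. The gene that rose was Slc10a2, which in mice is held low in the jejunum by GATA4. It read 8.31, 7.86, 8.34, 8.69 and 8.54 in KO, against 3.87, 3.95, 3.59, 3.61 and 4.04 in WT. Every WT array was below the lowest negative control median of 4.30 and its own, so the change of 4.54 is a lower bound (SE 0.16; limma, adjusted p = 2.39e-09). Other genes of the ileal bile acid route fell or did not pass. The exporter subunits Slc51a and Slc51b changed by -2.63 and -2.37 and Nr1h4 by -1.69, with Slc51b at or below background in 4 of 5 KO arrays, while the bile acid carrier Fabp6 stood at 5.04 ± 0.24 in KO and 5.03 ± 0.21 in WT (SD, n = 5 each). Amn, which anchors the receptor for vitamin B12, changed by -0.80.

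The reverse question, whether genes of neighbouring organs were higher, was read from 2 lists. Of 19 measured stomach and oesophagus genes, 2 rose, 1 fell and 16 did not pass, with a median of -0.00. These shares of 10.5% higher and 5.26% lower lie under the 15% and 11.8% of all genes. Some of the list could hardly show a fall, since Trp63 was at or below background in 4 of 5 arrays of each group and Cblif in 3 KO and 4 WT arrays. Tff2, a trefoil peptide of gastric mucous cells, stood at 10.37 ± 1.07 in KO and 6.12 ± 0.15 in WT (SD, n = 5 each), a change of 4.25, and the squamous keratin Krt4 changed by 2.66. For Krt4 the size is a lower bound in part, since 2 of 5 WT arrays were at or below background. The one that fell was Gkn3, a gastrokine, with -1.62 (limma, adjusted p = 0.0401), a call lost in 8 of the 10 fits with 1 array left out and measured with 4 of 5 KO arrays at or below background. Sox2, the foregut factor that opposes CDX2, stood at 4.96 ± 0.23 in KO and 5.36 ± 0.30 in WT (SD, n = 5 each) and did not pass. It was at or below background in 3 of 5 KO arrays and 0 of 5 WT arrays. This limits what can be seen of a fall in KO, but it does not hide a rise. Of 11 measured colon genes, 0 rose, 3 fell (27.3%, against 11.8% of all genes) and 8 did not pass. Among these 8, Hoxb13 and Retnlb were at or below background in all 5 arrays of each group. The chloride exchanger Slc26a3 changed by -4.85, Slc37a2 by -0.69 and B3galt5 by -0.67. The call of B3galt5 held in 3 of the 10 fits with 1 array left out and was lost with cyclic loess (limma, adjusted p = 0.0502), and 4 of its 5 KO and 2 of its 5 WT arrays were at or below background.

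Marker genes of the epithelium and of other cells were set beside the factors. Of 14 general epithelial genes, 5 rose (35.7%), 5 fell (35.7%) and 4 did not pass, against 15% higher and 11.8% lower over all genes. The mean of the list per array ran from 10.24 to 10.67 in KO and from 10.74 to 11.07 in WT. That mean is pulled by Cldn15, whose change was the lowest of the list, while the median change of the 14 genes was -0.14. The list shares 2 genes, Cdh17 and Lgals4, with the reported CDX2 targets. Cdh1, the epithelial cadherin, stood at 12.72 ± 0.07 in KO and 12.27 ± 0.16 in WT (SD, n = 5 each), Krt18 changed by 1.43, Vil1 by -1.03 and Cldn15 by -5.68. Epcam did not pass, at 10.82 ± 0.12 in KO and 11.12 ± 0.16 in WT (SD, n = 5 each; limma, adjusted p = 0.0589), but it passed as lower with cyclic loess (adjusted p = 0.0376) and under 5 other alternatives. Of 20 measured markers of non-epithelial cells, 1 rose (5%), 1 was called lower (5%) and 18 did not pass. Both shares lie under the 15% and 11.8% of all genes. Des, Kdr and Elavl4 were at or below background in all 5 arrays of each group, and Cdh5 in 4 KO and 5 WT arrays. A fall could not be seen in such genes, so the low share of fallers does not show that their levels held. The mean of these 20 markers per array ran from 5.14 to 5.37 in KO and from 5.22 to 5.33 in WT. The one that rose was Csf1r, the receptor for macrophage growth factor (1.53), and the one called lower was Lum, a matrix proteoglycan (-0.39), which was below the negative control median in all 10 arrays and so above background in neither group. Ptprc, which marks all leukocytes, stood at 5.49 ± 0.10 in KO and 5.70 ± 0.21 in WT (SD, n = 5 each).

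The genes whose levels ran most like each factor were found by the root mean square difference of levels centred on their means over the 10 arrays, for the 7 factors that passed with a change of at least 1 in size. These values are a description over arrays that fall into 2 groups. The closest neighbour of all was that of Gata5, the carboxylesterase Ces1c at 0.113, followed for Gata5 by the transcription factor Sox6 at 0.193. Hnf4a ran with Galnt4, which starts O-linked sugar chains (0.130), and the leukotriene hydrolase Lta4h (0.153), and Gata4 with the agmatinase Agmat (0.170) and Baiap2l2 (0.200). Cdx1 ran with Ptgr1, a prostaglandin reductase (0.189), and Ror2, a receptor for Wnt5a (0.194). Hnf4g ran with Tm4sf5 (0.300) and Prap1 (0.314), and Cdx2 with the ribonuclease Ang2 (0.391), which has near-identical paralogs and is therefore uncertain, and with Plcb3 (0.403).

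Isx had the loosest neighbours, Mep1a at 0.496 and Ctrb1 at 0.552. Mep1a, the α subunit of the brush border protease meprin, read 4.04, 4.76, 4.63, 4.74 and 4.81 in KO, against 5.26, 8.57, 8.40, 9.06 and 8.75 in WT. Ctrb1, a chymotrypsinogen, read 5.05, 5.17, 4.89, 5.37 and 6.04 in KO, against 5.81, 9.04, 9.02, 10.81 and 9.15 in WT. WT replicate 1 was the low array of its group for both, which the choice of genes by likeness to Isx favours and which is therefore no separate observation. In Mep1a, 4 of 5 KO arrays were at or below the negative control median.

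**Figure D5:**
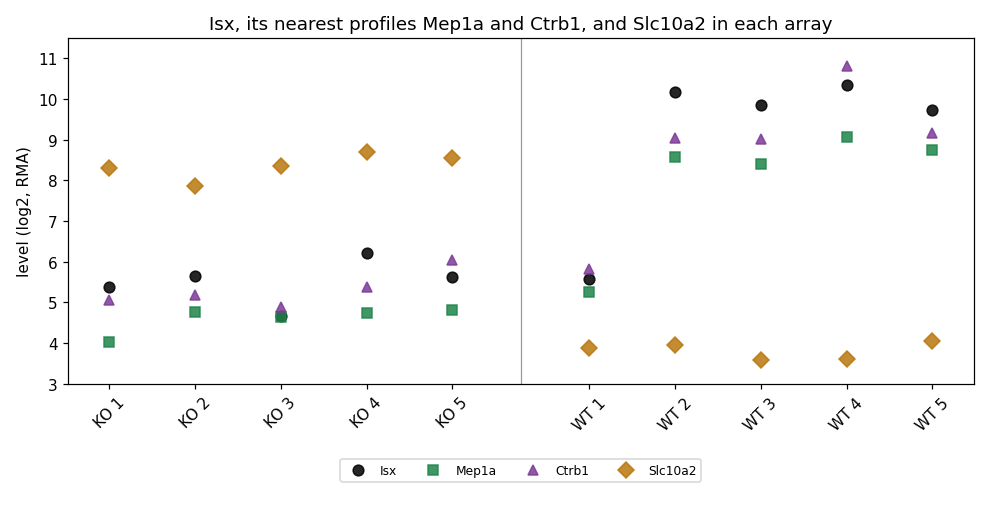
Log2 levels (RMA) of Isx (circles), Mep1a (squares), Ctrb1 (triangles) and Slc10a2 (diamonds) in KO arrays 1 to 5 (left) and WT arrays 1 to 5 (right). WT replicate 1 holds Isx at 5.58, Mep1a at 5.26 and Ctrb1 at 5.81, near the KO arrays (Mep1a and Ctrb1 were chosen for their likeness to Isx), while its Slc10a2 level of 3.87 is like that of the other WT arrays.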

How the data were processed

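RNA of 5 KO and 5 WT samples was isolated with an RNeasy kit, and 100 ng was biotin-labelled by the GeneChip WT PLUS method, per the labels' protocols. The values deposited by the authors are log2 levels, 1 for each probe set on each array. RMA and limma are the tools named in the submitters' processing notes. The sources used here give no versions or genome build. Of 28846 probe sets, 6640 were controls, 19572 had 1 gene symbol, 0 had several and 2634 are unnamed here. KO and WT were compared with limma 3.58.1 (R 4.3.3) on all probe sets, without a replicate block, with Benjamini-Hochberg adjustment over the 19572 at a threshold of 0.05. A gene with several probe sets was read from the one with the highest mean. Promoter letters and figures used matplotlib 3.10.9, numpy 2.4.6 and pandas 2.3.3 under Python 3.11.15. The scripts were tested on simulated data.

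The factors and lists were chosen with earlier results of these data known. Named genes were the 9 factors, Nfkbia, Bco1, Scarb1, 5 sex-linked genes (of which Ddx3y and Xist are unnamed here), up to 4 genes per list with the smallest p among those that passed, and the 2 genes nearest to each factor with a change of at least 1. Others were named after their values were seen, among them Klf5, Sox2, Ptprc, Cdh1, Epcam and the genes of the relatives list that did not pass. No detection calls were used, and the number of arrays limits the precision. Alternatives changed the normalization, filter, variance model, array weights, replicate block, adjustment, summary per gene and threshold, and left out each array in turn.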

Additional observations from a re-analysis of the deposited data

Results flagged for a closer look

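Among 148 combinations of a named gene and a group, 10 held 1 array whose gap to the nearest other exceeded 0.71 of the range of its group of 5. Chance gives about 1 in 20 for normally spread values of genes chosen blind. That rate does not hold as such here, since some genes, among them Cybrd1, were named after their values were seen. Some flagged levels also lay in groups near background, as for Mep1a and Ang2, each at or below it in 4 of 5 KO arrays. Isx in WT had WT replicate 1 at 5.58, with the other 4 arrays at 9.72 to 10.35. The same array was low for Mep1a, a gene chosen for its likeness to Isx, at 5.26 with the others at 8.40 to 9.06, and high for Cybrd1, at 9.76 with the others at 5.51 to 6.06. In KO, Mep1a was low in replicate 1, at 4.04 with the others at 4.63 to 4.81, and so was Ptgr1, at 6.38 with the others at 6.73 to 6.82. KO replicate 2 was high for Ang2, at 5.14 with the others at 4.58 to 4.74, and for Amn, at 7.61 with the others at 6.93 to 7.08. KO replicate 4 was high for Gucy2c, at 5.92 with the others at 5.01 to 5.27. WT replicate 3 was low for Abcg8, at 8.71 with the others at 10.05 to 10.55, and WT replicate 5 was high for Nfkbia, at 9.85 with the others at 8.95 to 9.19.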

How the results depend on the processing

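Cdx1, Cdx2, Hnf4a, Hnf4g, Gata4, Gata5 and Isx kept their direction and stayed past the threshold under all 20 alternatives. Gata6 no longer passed in 8, among them the test against a 1.2-fold change, nor in 1 more in which its sign turned. The labels do not say whether equal replicate numbers mark pairs. Between arrays of equal number, the correlation of deviations was -0.066 to 0.36, above 0.1 in 2 of 5 pairs. In KO, 2 of 5 arrays matched their own number best. These values cannot settle whether the arrays were paired. With the replicate block, 2 non-epithelial markers were lower, and an exact sign-flip test of the pairs, which cannot go below a raw p of 0.0625, gave an adjusted p of 0.125 for Cdx1 minus Cdx2 (-0.85) and 0.0781 for Hnf4a minus Hnf4g (3.47), Gata4 minus Gata5 (-0.82), Gata4 minus Gata6 (-2.93) and Gata5 minus Gata6 (-2.11). With 1 array left out, Cdx1 minus Cdx2 ran from -1.04 to -0.69, lower stomach genes from 0 to 2, lower non-epithelial markers from 1 to 2 and higher proximal genes from 0 to 1 (Cybrd1, without WT replicate 1). Lower stomach genes numbered 0 without the dimmest 25% of probe sets or with adjustment over all probe sets, and 2 with array weights. Lower non-epithelial markers numbered 2 after centring on the 75th percentile or with array weights, and 0 without the dimmest 25%. Against a 1.2-fold change, 0 CDX2 targets were higher, 0 stomach genes, 1 colon gene, 3 epithelial genes and 0 non-epithelial markers were lower, 1 epithelial gene was higher, and over all probe sets 1262 were lower and 1772 higher. Genes near 0 changed sign: Cldn2 (-0.0095 with cyclic loess, -0.019 centred on the 75th percentile), Fabp6 (-0.024 centred on it, -0.023 with weights) and Slc40a1 (0.31 with weights). With 1 array left out these ran from -0.057 to 0.088, -0.082 to 0.069 and -0.50 to 0.23, and Scarb1 from -0.10 to 0.16. Centring on hybridization controls, chosen after seeing the data, raised the median of all genes to 0.57, with 14472 probe sets higher and 849 lower. There Gata6 was 0.041, Maf 0.22, Lum 0.20, Slc40a1 0.44, Epcam 0.29 and Cldn7 0.13. Higher counts were 7 other factors, 7 relatives, 2 CDX2 targets, 4 distal, 15 stomach, 7 colon genes and 15 non-epithelial markers, and lower counts 0 stomach, 1 colon, 1 epithelial and 0 non-epithelial. Apart from the construction of each alternative, the cause was not tested. Signal at or below the negative controls limits many sizes, among them those of Abcg8, Fabp1, Eif2s3y, Uty and Kdm5d in all 5 KO arrays and that of Slc10a2 in all 5 WT arrays.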

Other observations

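Promoter letters were also counted over the gene lists, as a description. The CDX letters TTTATG stood in 5 of the 10 windows of reported CDX2 targets and in 4 of the 8 windows of distal small intestine genes, against 11.9% of all windows. They also stood in 3 of 12 proximal, 3 of 15 HNF4 target, 2 of 10 colon and 3 of 16 non-epithelial windows. Lower counts were 3 of 20 for the other factors, 1 of 12 for relatives, 1 of 16 for stomach and 1 of 10 for general epithelial genes. Fabp1, a fatty acid carrier whose level was 4.18 ± 0.19 in KO and 10.75 ± 1.39 in WT (SD, n = 5 each), with all 5 KO arrays below background, held 2 matches on the opposite strand, 226 and 88 bases before its start. The HNF4 letters stood in 0 of 15 windows of reported HNF4 targets and in 2 of 10 of CDX2 targets, against 0.475% of all windows. The NF-kB letters stood in 2 of 10 windows of CDX2 targets, 4 of 15 of HNF4 targets, 5 of 12 of proximal genes and 1 of 8 of distal genes, against 20.7% of all windows. None of these counts was tested.

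The general epithelial list held further genes with small changes. Krt8, the partner keratin of Krt18, changed by 0.43, the claudin Cldn3 by 0.64 and the epithelial factor Grhl2 by 0.58, while Cdh17 changed by -0.68, Cldn7 by -0.46 and the lectin Lgals4 by -0.61 (limma, each with an adjusted p under 0.05). These genes were named after their values were seen, except Cdh17. With 1 array left out, the call of Lgals4 was lost in 6 of 10 fits and that of Grhl2 in 3.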
